A study of Mus musculus with 12 samples.

Results

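10 genes of the circadian clock, Arntl, Npas2, Clock, Nr1d1, Nr1d2, Per1, Per2, Per3, Cry1 and Dbp, were followed through 12 livers of a mouse sepsis experiment. They were taken by gene symbol from a table of 25611 genes, and all 10 were among the 13190 genes that passed a filter on low counts. The choice was made with their values in these livers already known: Per1 had been seen to be high after dichloroacetate in a pattern unlike that of the other members. Their levels and differences between groups are therefore given as a description, and no test is read for them. Tests are given for a separate list of 22 other clock genes and for lists of related genes. Those lists were also drawn up with earlier results of these data known, so their tests are not independent of the data.

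RNA was sequenced from whole livers of male C57BL/6J mice aged 8 to 10 weeks, 4 mice per group, kept under 12 hr of light and 12 hr of dark. Sham mice had surgery without ligation or puncture, and CLP mice had cecal ligation and puncture, a model of polymicrobial sepsis in which the cecum is tied off and was here punctured 2 times with a 22 gauge needle. CLP+DCA mice had the same surgery and received 25 mg/kg of dichloroacetate (DCA), an inhibitor of the pyruvate dehydrogenase kinases, at 24 hr post-surgery. All livers were collected at 30 hr post-surgery, 6 hr after the injections. What sham and CLP mice were injected with, and the clock time of surgery and of collection, are not given in the sources used here. Since a clock transcript's level depends on the time of day, each value is a single time point and says nothing about the size or phase of a rhythm.

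The mammalian clock is a feedback loop of transcription. BMAL1 (encoded by Arntl) pairs with CLOCK or NPAS2, binds E-boxes and activates the Per, Cry, Nr1d and Dbp genes. PER and CRY proteins return to block that activation, while REV-ERB proteins (encoded by Nr1d1 and Nr1d2) repress Arntl and Npas2. As a result, Arntl and many of the E-box targets, such as Dbp, peak at roughly opposite times of day. In liver the loop times the expression of genes of bile acid, lipid and glucose metabolism. Per1 also has a second kind of input, since it is known to respond acutely to glucocorticoids and to cAMP signalling.

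Depth ranged from 24436513 to 44266819 counted reads per mouse, with a median of 30005989, and liver identity was plain from Alb, at 15320 CPM (reads scaled to the size of the library) or more in every mouse, and Hnf4a, at 634.6 CPM or more. Some libraries stood apart from their labels. Distance was the root mean square difference in log2 CPM from the mean of a group, leaving out the mouse itself, over all genes that passed the filter. By it, CLP+DCA replicate 3 lay nearer to the CLP mean (0.636) than to that of sham (1.1) or of the other CLP+DCA mice (0.99). CLP+DCA replicates 1 and 4 lay nearest to sham, and CLP replicates 1 and 3 nearest to CLP+DCA, with replicate 3 included in the CLP+DCA mean. Summed neutrophil markers were 4.91 to 6.21 CPM in sham and 27.9 to 40.0 CPM in CLP. In CLP+DCA they were 4.34 to 11.0 CPM in replicates 1, 2 and 4 and 55.5 CPM in replicate 3. Most of the sum in CLP came from S100a8 and S100a9, with means of 11.0 and 13.6 CPM. Ly6g went the other way, with means of 0.823 CPM in sham, 0.459 CPM in CLP and 0.417 CPM in CLP+DCA. Of the 10 neutrophil markers, Camp had no reads in sham mice and Mpo had 4 or fewer reads in every mouse. In bulk liver, fewer cells of a type and less RNA per cell cannot be told apart. Where leaving out CLP+DCA replicate 3 turned a member's difference or changed a count of calls, the value without it stands beside the main one.

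The start sites of 9 members were found in the RefSeq table (build GRCm38.p6), with 13 windows of 300 bases, 250 before and 50 after each start; Per2 was not matched. Both strands were searched for the letters CACGTG (the E-box, in 7.15% of all 32851 windows), CACGTT (an E'-box, 4.68%), TTATGTAA (the D-box, bound by DBP and its relatives, 0.938%), TAGGTCA (the core of the element shared by REV-ERB and ROR proteins, 2.61%), TGACGTCA (the cAMP response element, 1.79%) and for a full palindromic glucocorticoid response element (0.00913%). The E-box was found in the windows of Per1 and Cry1, the E'-box in those of Cry1 and Nr1d1, the D-box at 2 places in Per3, and the REV-ERB and ROR core in Arntl, 31 bases into the transcript from the second of its starts. No member window held the cAMP or the glucocorticoid element, and Per2 had no window. That absence says nothing about sites outside the 300 bases. The full glucocorticoid palindrome was in only 3 of all 32851 windows, so a match in any member was unlikely from the start. The sequences show these matches in capitals, on the strand of the gene, and are shown for an activator (Arntl) and 3 repressors (Per1, Per3 and Cry1) whose levels over the groups, given next, were unlike each other. Per1 is chr11:69098699-69098948 on the plus strand, Per3 chr4:151044666-151044915 on the minus strand, Cry1 chr10:85185055-85185304 on the minus strand, and Arntl chr7:113207529-113207558 on the plus strand. The first 3 end at the base before the start site, and a match is a description of the letters only.
Per1: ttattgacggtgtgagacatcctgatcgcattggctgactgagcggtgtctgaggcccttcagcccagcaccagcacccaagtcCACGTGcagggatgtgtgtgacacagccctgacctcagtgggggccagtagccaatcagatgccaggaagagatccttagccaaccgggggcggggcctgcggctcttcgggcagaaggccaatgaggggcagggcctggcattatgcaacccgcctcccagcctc
Per3: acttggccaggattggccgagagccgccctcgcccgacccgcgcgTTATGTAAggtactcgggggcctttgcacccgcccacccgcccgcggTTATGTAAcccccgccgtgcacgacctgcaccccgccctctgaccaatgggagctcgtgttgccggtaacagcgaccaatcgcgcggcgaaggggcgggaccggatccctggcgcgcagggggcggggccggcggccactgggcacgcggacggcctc
Cry1: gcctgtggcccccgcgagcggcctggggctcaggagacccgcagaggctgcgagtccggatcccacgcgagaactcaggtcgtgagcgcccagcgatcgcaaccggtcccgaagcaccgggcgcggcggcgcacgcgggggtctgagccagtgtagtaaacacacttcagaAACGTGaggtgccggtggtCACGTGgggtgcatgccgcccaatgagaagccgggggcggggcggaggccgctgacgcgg
Arntl: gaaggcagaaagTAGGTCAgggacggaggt

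In each CLP+DCA mouse, Per1 lay above its own level in every sham and CLP mouse. Per1 (NCBI Gene 18626, chromosome 11, 69098949 to 69109957) encodes a PERIOD repressor of CLOCK and BMAL1. It was at 20.2, 32.7, 23.3 and 21 CPM in the 4 sham mice. In the CLP mice it was at 23.9, 28.8, 29.9 and 28.2 CPM, and in the CLP+DCA mice at 51.0, 57.6, 56.0 and 43.1 CPM. Sham and CLP overlapped, whereas all 4 CLP+DCA mice were above both groups, and replicate 3, which resembled CLP over the transcriptome, was inside the CLP+DCA range. The group means were 24.3 ± 5.75 CPM in sham, 27.7 ± 2.63 CPM in CLP and 52.0 ± 6.52 CPM in CLP+DCA (SD, n = 4 each). On the log2 scale the CLP+DCA mice were 1.09 (SE 0.154) above sham and 0.91 (SE 0.153) above CLP, and the CLP mice were 0.19 (SE 0.153) above sham. Without CLP+DCA replicate 3 the differences of Per1 were 1.06 from sham and 0.87 from CLP.

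**Figure D1:**
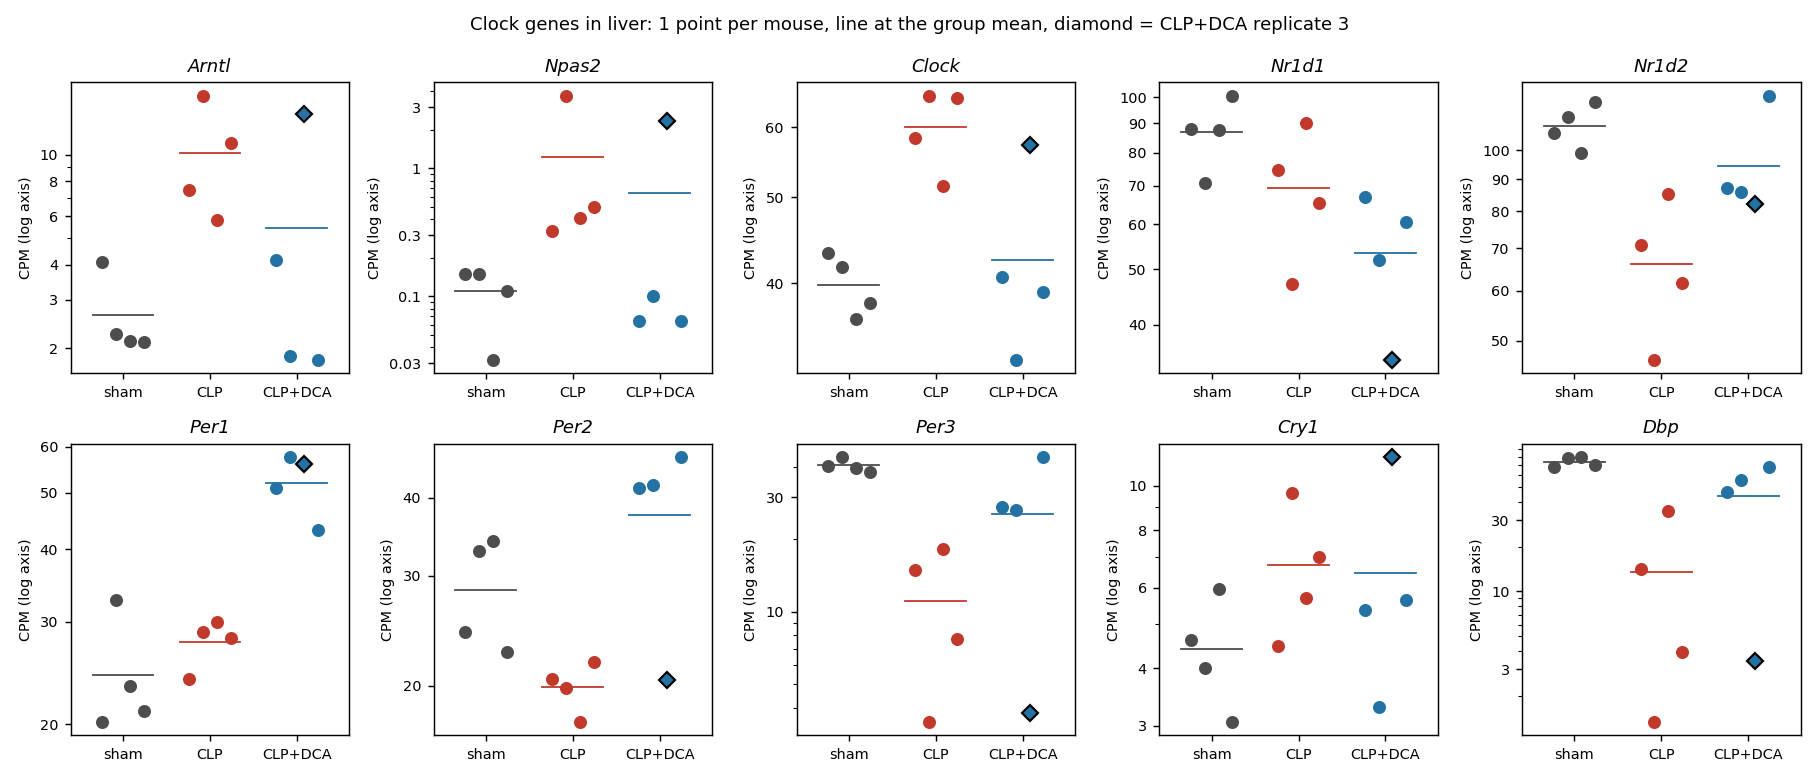
Level of each of the 10 clock genes in CPM (log axis) by group, with 1 point per mouse, a line at the group mean and a diamond for CLP+DCA replicate 3. In the Per1 panel the 4 CLP+DCA mice lie between 43.1 and 57.6 CPM, above every sham and CLP mouse; in the Arntl, Npas2, Per3 and Dbp panels the diamond lies with the CLP mice.

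The activators were higher in CLP than in sham. Arntl (Gene 11865, chromosome 7, 113207465 to 113314126), the obligate partner in the activating complex, was at 4.09, 2.25, 2.12 and 2.11 CPM in sham. It was at 7.44, 16.3, 5.80 and 11.0 CPM in CLP and at 4.15, 1.88, 13.95 and 1.81 CPM in CLP+DCA. Every CLP mouse was above every sham mouse, 3 CLP+DCA mice were at or near sham levels, and CLP+DCA replicate 3 was above 3 of the 4 CLP mice. Arntl was 1.94 (SE 0.622) higher on the log2 scale in CLP than in sham and 1.06 (SE 0.613) higher in CLP+DCA than in sham. That second difference rested on 1 liver, since it was -0.002 without CLP+DCA replicate 3. Between CLP+DCA and CLP the log2 difference of Arntl was -0.88 (SE 0.597) with all mice and -1.94 without replicate 3.

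Npas2, which can take the place of CLOCK beside BMAL1, was the member with the fewest reads, 1 to 6 per mouse in sham. It was at 0.149, 0.149, 0.0317 and 0.109 CPM in sham, at 0.323, 3.69, 0.411 and 0.494 CPM in CLP, and at 0.0639, 0.101, 2.33 and 0.0636 CPM in CLP+DCA. CLP replicate 2 and CLP+DCA replicate 3, the livers with the highest Arntl, were also those with the highest Npas2. Its log2 difference between CLP and sham was 3.37 (SE 1.34), and 1.84 without CLP replicate 2. Between CLP+DCA and sham it was 2.54 (SE 1.34), and -0.52 without CLP+DCA replicate 3. The log2 difference of Npas2 between CLP+DCA and CLP was -0.83 (SE 1.1) with all mice, -3.87 without CLP+DCA replicate 3 and 0.70 without CLP replicate 2, so its direction depended on single livers. Clock, whose protein is the usual partner of BMAL1, had the narrowest range of the 10 members, 1.99-fold over the 12 mice. Clock was at 36.5 to 43.3 CPM in sham and 51.5 to 65.1 CPM in CLP, without overlap. In CLP+DCA it was at 40.6, 32.7, 57.3 and 39.1 CPM, and only replicate 3 reached the CLP range. The log2 difference of Clock between CLP+DCA and sham was 0.09 (SE 0.151), and -0.09 without replicate 3.

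The REV-ERB genes did not share a pattern. Nr1d1 was at 87.9, 70.9, 87.8 and 100.7 CPM in sham, at 74.7, 47.1, 90.2 and 65.3 CPM in CLP, and at 66.9, 52.0, 34.7 and 60.4 CPM in CLP+DCA. CLP overlapped both other groups, and every CLP+DCA mouse was below every sham mouse, the closest by 66.9 against 70.9 CPM. Nr1d1 was the member for which CLP+DCA lay farther from sham than CLP did on the low side, with log2 differences from sham of -0.70 (SE 0.222) in CLP+DCA and -0.32 (SE 0.221) in CLP. Nr1d2 was at 106.5, 112.9, 98.9 and 119.0 CPM in sham, at 70.8, 46.6, 85.3 and 61.7 CPM in CLP, and at 87.0, 85.8, 82.1 and 121.9 CPM in CLP+DCA. For Nr1d2 it was CLP that lay wholly below sham, by -0.73 (SE 0.179) on the log2 scale, and CLP+DCA was 0.51 (SE 0.179) above CLP with 1 mouse, replicate 3, inside the CLP range. The ratio of Nr1d1 reads to Nr1d2 reads was 0.628 to 0.887 in sham, 1.01 to 1.06 in CLP and 0.422 to 0.769 in CLP+DCA, so that CLP mice lay above all others. The 3′ part of Nr1d1 overlaps exons of Thra on the other strand by 263 bases, 8.55% of its exon length. The library kit does not mark strand, so reads in that stretch cannot be told apart.

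Of the other PER and CRY repressors, Per2 was partly like Per1 and Per3 was not. Per2 was at 24.4, 32.9, 34.1 and 22.7 CPM in sham, at 20.5, 19.9, 17.5 and 21.8 CPM in CLP, and at 41.4, 41.9, 20.5 and 46.5 CPM in CLP+DCA. Every CLP mouse was below every sham mouse, the nearest pair being 21.8 and 22.7 CPM. Of the CLP+DCA mice 3 were above every sham mouse, and replicate 3 was at the CLP level. Per2 in CLP+DCA was 0.40 (SE 0.224) above sham and 0.91 (SE 0.226) above CLP on the log2 scale, and 0.60 and 1.12 without replicate 3.

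Per3, a PERIOD family member whose promoter window holds the D-boxes shown, was at 40.3, 44.0, 39.7 and 38.3 CPM in sham. It was at 15.0, 3.5, 18.3 and 7.72 CPM in CLP and at 27.3, 26.6, 3.79 and 43.9 CPM in CLP+DCA. The sham mice were tightly grouped at 40.6 ± 2.45 CPM (SD, n = 4), all CLP mice were below them, and the CLP+DCA mice spanned from the CLP level to the sham level. The log2 differences of Per3 were -1.85 (SE 0.604) for CLP against sham and 1.17 (SE 0.596) for CLP+DCA against CLP. Cry1, a cryptochrome repressor, was at 4.61, 4.01, 5.95 and 3.06 CPM in sham, at 4.47, 9.67, 5.71 and 7.0 CPM in CLP, and at 5.36, 3.29, 11.6 and 5.63 CPM in CLP+DCA. The 3 groups overlapped, and the highest Cry1 was again in CLP+DCA replicate 3 and CLP replicate 2. Its log2 difference from sham was 0.60 (SE 0.364) in CLP and 0.56 (SE 0.363) in CLP+DCA, and 0.12 in CLP+DCA without replicate 3.

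Dbp, an output gene that encodes a D-box activator, was the most widely spread of the well expressed members, with a range of 59.6-fold over the 12 mice. Dbp (Gene 13170, chromosome 7, 45705247 to 45710203) was at 68.2, 78.5, 79.8 and 70.7 CPM in sham. In CLP it was at 14.1, 1.34, 34.6 and 3.91 CPM, and in CLP+DCA at 46.7, 56.0, 3.44 and 68.1 CPM. All CLP mice were below all sham mice and differed among themselves by more than any sham mice did. In CLP+DCA, replicate 4 was just under the lowest sham mouse and replicate 3 was below 3 of the 4 CLP mice. Dbp was lower in CLP than in sham by a log2 difference of -2.44 (SE 0.895), and in CLP+DCA its log2 difference was -0.77 (SE 0.85) from sham and 1.67 (SE 0.874) from CLP. Without replicate 3 these last differences were -0.38 and 2.04. The end of Dbp overlaps exons of Sphk2 on the other strand by 539 bases, 18.0% of its exon length, where reads cannot be told apart.

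The ratio of Dbp reads to Arntl reads in 1 liver needs no scaling between libraries and sets an output of the loop against its activator. It was 16.7, 34.9, 37.6 and 33.6 in sham. It was 1.89, 0.0821, 5.97 and 0.355 in CLP, and 11.3, 29.8, 0.247 and 37.6 in CLP+DCA. The CLP mice were all below the sham mice, 3 CLP+DCA mice were above every CLP mouse, and CLP+DCA replicate 3 was below 3 of the 4 CLP mice. The ratio of Per1 to Per3 reads gave another order: 0.501 to 0.743 in sham, then 1.60, 8.25, 1.64 and 3.65 in CLP and 1.87, 2.17, 14.8 and 0.983 in CLP+DCA. All CLP and CLP+DCA mice were above all sham mice in this ratio, and the highest was CLP+DCA replicate 3, where Per1 was high and Per3 low in the same liver.

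**Figure D2:**
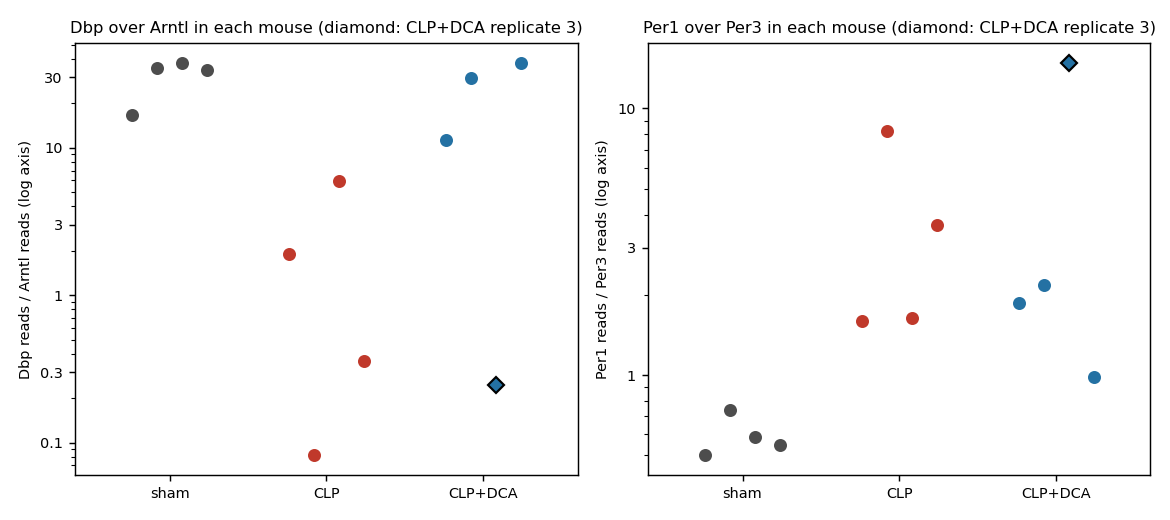
Ratio of Dbp to Arntl reads (left) and of Per1 to Per3 reads (right) in each of the 12 mice, on log axes, by group, with a diamond for CLP+DCA replicate 3. On the left the sham mice lie between 16.7 and 37.6 and the CLP mice between 0.0821 and 5.97; on the right the diamond is at 14.8, above all other mice.

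Over the 12 mice, as a description of points that come from 3 groups, Pearson's r of log2 CPM was 0.944 between Arntl and Clock, 0.979 between Dbp and Per3, and -0.933 between Arntl and Dbp. For Per1 it was -0.003 with Arntl, -0.099 with Dbp and 0.481 with Per2, and it was farthest from 0 with Nr1d1, at -0.734. Over the 11 mice other than CLP+DCA replicate 3, r was 0.951, 0.984 and -0.918 for the first 3 pairs. For Per1 it was then -0.256 with Arntl, 0.119 with Dbp, 0.698 with Per2 and -0.648 with Nr1d1. Among 9365 genes with enough reads, those most like Per1 over the 12 mice were Tob2 (Pearson's r 0.934), Shb (0.895), Apba3 (0.888), Rcc1 (0.881) and Pfkfb3 (0.88), the last an enzyme that makes the glycolytic activator fructose 2,6-bisphosphate. Tob2 was at 37.5 ± 9.03 CPM in sham, 36.5 ± 5.17 CPM in CLP and 57.7 ± 7.0 CPM in CLP+DCA (SD, n = 4). Pfkfb3 was at 9.75 ± 3.02, 21 ± 10.9 and 45.7 ± 23.9 CPM in the same order. Those most like Arntl were Nucb2 (0.958), Sqle (0.957), Mad2l2 (0.955), Pcsk5 (0.95) and Lrp5 (0.95), and the most opposite were Retreg2 (-0.966), Cdc37 (-0.962), Phb2 (-0.955), Tmem183a (-0.955) and Pex6 (-0.954). Sqle, an enzyme of cholesterol synthesis, was at 85.4 ± 7.94 CPM in sham and 204.6 ± 50.4 CPM in CLP.

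Per length, the order of the members also differed between groups. In sham, in CPM per kb of exon, Nr1d1 was at 28.2 ± 3.97 and Dbp at 24.8 ± 1.91, levels that overlapped within 1 SD, and Nr1d2 followed at 20.2 ± 1.59. Per2 at 4.87 ± 0.997, Per1 at 4.32 ± 1.02 and Per3 at 4.22 ± 0.254 CPM per kb were not separated beyond their spread. Clock was at 2.90 ± 0.23, Cry1 at 1.32 ± 0.362, Arntl at 0.351 ± 0.129 and Npas2 at 0.0229 ± 0.0115 CPM per kb (SD, n = 4 each). In CLP the levels per kb were 4.92 ± 0.467 for Per1, 4.51 ± 5.05 for Dbp and 4.37 ± 0.466 for Clock, neighbours within their spread, and Per3 at 1.16 ± 0.7 was near Arntl at 1.35 ± 0.619. In CLP+DCA, Per1 stood at 9.23 ± 1.16 CPM per kb, next below Dbp at 14.6 ± 9.41, from which it did not differ beyond the spread.

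Over the 10 members, edgeR's quasi-likelihood test at a false discovery rate of 5%, adjusted over all 13190 genes, called 0 between CLP and sham, where 2.78% of all genes were called. It called 1, Per1, between CLP+DCA and sham (background 0.0379%) and 0 between CLP+DCA and CLP (background 0.00758%). At an unadjusted p under 0.05 there were 3 higher (background 15.5%) and 4 lower (13.1%) between CLP and sham. The counts were 1 higher (8.14%) and 1 lower (4.85%) for CLP+DCA against sham, and 3 higher (5.06%) and 1 lower (4.94%) for CLP+DCA against CLP. DESeq2 on all mice called 4, 1 and 2 members, with backgrounds of 13.0%, 1.83% and 0.815%. The groups did not overlap for 7 members between CLP and sham, 3 higher (background 12.2%) and 4 lower (14.2%), where 26.5% of all genes did not overlap, for 3 between CLP+DCA and sham (9.76%) and for 1, Per1, between CLP+DCA and CLP (4.37%). The median log2 difference of the members was -0.07, 0.24 and 0.23 in the 3 comparisons, against 0.02, 0.01 and 0.01 for all genes. It was -0.07, -0.12 and 0.18 without CLP+DCA replicate 3, against 0.018, -0.002 and -0.008 for all genes, so that the sign for CLP+DCA against sham turned. Without CLP+DCA replicate 3, edgeR called 7 members between CLP and sham (background 23.8%), 1 between CLP+DCA and sham (0.0828%) and 4 between CLP+DCA and CLP (4.64%), Per1 and Per2 higher and Arntl and Clock lower. The members were chosen from these contrasts, so nothing is read from the counts, and each pair of comparisons shares 1 group of mice.

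**Figure D3:**
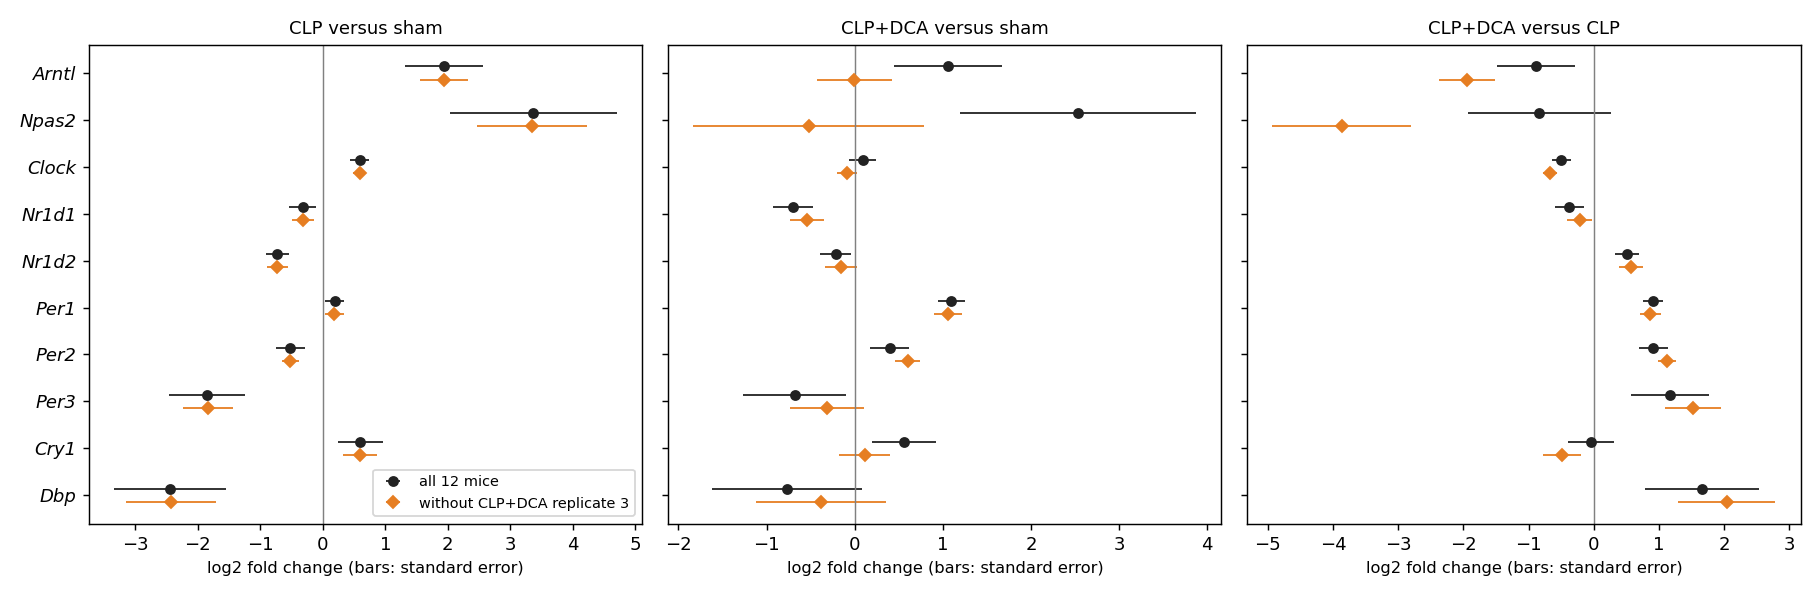
Log2 fold change of the 10 clock genes in the 3 comparisons, with bars of 1 standard error from the edgeR fit, with all 12 mice (circles) and without CLP+DCA replicate 3 (diamonds). The Per1 circles and diamonds nearly coincide, at 1.09 and 1.06 against sham, whereas Arntl against sham moves from 1.06 to -0.002.

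The clock genes that were not used in the choice gave few calls with all mice. Of 22 listed, 21 passed the filter; Rorb, an ROR receptor gene, had 1 read in 1 mouse and none in the others. Between CLP and sham, 1 was called higher, Timeless, and 0 lower by edgeR's quasi-likelihood test with Benjamini-Hochberg adjustment, against a background of 2.78%. At an unadjusted p under 0.05, 2 were higher (background 15.5%) and 7 lower (13.1%), and DESeq2 on all mice called 4 (13.0%). The median log2 difference was -0.31 against 0.02 for all genes. The comparison of CLP+DCA with sham gave 0 calls by edgeR (background 0.0379%), 1 higher at an unadjusted p under 0.05 (8.14%) and 0 by DESeq2 on all mice (1.83%). In CLP+DCA against CLP, 0 were called by edgeR (background 0.00758%), 6 were higher (5.06%) and 0 lower (4.94%) at an unadjusted p under 0.05, and DESeq2 on all mice called 2 (0.815%).

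Timeless, whose protein acts at replication forks and has been tied to the clock, rose slightly in CLP. It was at 5.58, 6.39, 5.16 and 6.54 CPM in sham, at 7.35, 8.76, 7.76 and 8.67 CPM in CLP, and at 6.86, 7.36, 7.80 and 7.41 CPM in CLP+DCA. CLP and CLP+DCA mice were all above the sham mice. The log2 difference between CLP and sham was 0.46 (SE 0.107, adjusted p = 0.0478 by edgeR), and the call was lost without any 1 of 9 mice, all 4 sham mice, CLP replicates 1, 2 and 4 and CLP+DCA replicates 1 and 2, with adjusted p of up to 0.136 by edgeR.

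Of the 20 other clock genes shown, Noct, Usp2, Ciart and Bhlhe40 had the 4 highest log2 differences between CLP+DCA and CLP. Bhlhe40 (DEC1), an E-box repressor, was at 112, 132.1, 100.6 and 87.8 CPM in sham, at 58.1, 39.0, 69.3 and 39.4 CPM in CLP, and at 128.7, 110.8, 269.1 and 138.1 CPM in CLP+DCA. All CLP mice were below all others, and the highest was CLP+DCA replicate 3. Its log2 difference was -1.07 (SE 0.286, adjusted p = 0.0623 by edgeR) for CLP against sham and 1.65 (SE 0.29, adjusted p = 0.122 by edgeR) for CLP+DCA against CLP.

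Noct (nocturnin), a rhythmic phosphatase, was at 17.3, 54.5, 15.2 and 19.6 CPM in sham, at 10.5, 6.94, 11.3 and 6.29 CPM in CLP, and at 54.5, 78.2, 17.7 and 41.7 CPM in CLP+DCA. Here too all CLP mice were below all others, and CLP+DCA replicate 3 was at the sham level. Its log2 difference was 2.45 (SE 0.503, adjusted p = 0.158 by edgeR) for CLP+DCA against CLP. Usp2, a deubiquitinase gene named after its values were seen, was at 15.6 to 34.5 CPM in sham, at 7.14, 1.68, 19.0 and 3.01 CPM in CLP, and at 38.8, 49.0, 4.09 and 42.5 CPM in CLP+DCA. Its log2 difference was 2.09 (SE 0.765, adjusted p = 0.414 by edgeR) for CLP+DCA against CLP, and CLP+DCA replicate 3 lay within the CLP range. Ciart, another repressor of CLOCK and BMAL1, was at 5.77 to 9.33 CPM in sham, at 4.61, 1.77, 8.22 and 2.02 CPM in CLP, and at 20.5, 25, 2.49 and 12.3 CPM in CLP+DCA. The 3 CLP+DCA mice other than replicate 3 were above every sham and CLP mouse. Cry2, the second cryptochrome, was at 33.8 to 44.0 CPM in sham, 19.8 to 27.1 CPM in CLP and 32.2, 36.3, 20.7 and 42.2 CPM in CLP+DCA. Csnk1d, the kinase that marks PER proteins for turnover, was at 67.0 to 70.2 CPM in sham, 69.3 to 81.4 CPM in CLP and 70.6 to 94.0 CPM in CLP+DCA, with log2 differences of 0.11 or 0.19 from sham that did not pass the test.

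Leaving out CLP+DCA replicate 3 changed how many of these genes were called between CLP and sham and between CLP+DCA and CLP. Other tools also changed both counts, and leaving out other single mice took the first as low as 0, as with sham replicate 1. Timeless, the 1 call between CLP and sham with all mice, was lost without any 1 of 9 mice. CLP+DCA replicate 3 is not in the CLP and sham comparison, but all groups shared the same edgeR fit. Without CLP+DCA replicate 3, edgeR called 6 of 21 between CLP and sham, against a background of 23.8%. Timeless and Fbxw11, an F-box gene of PER turnover, were called higher, and Cry2, Bhlhe40, Tef and Noct lower. Between CLP+DCA and sham edgeR then called 0, with a background of 0.0828%. It called 4 between CLP+DCA and CLP, all 4 higher, against a background of 4.64%. These were Noct (log2 difference 2.71, adjusted p = 0.0211 by edgeR), Ciart (2.16, adjusted p = 0.0337), Bhlhe40 (1.29, adjusted p = 0.0158) and Cry2 (0.58, adjusted p = 0.0331). Fbxw11 and Tef were named after their values were seen.

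**Figure D4:**
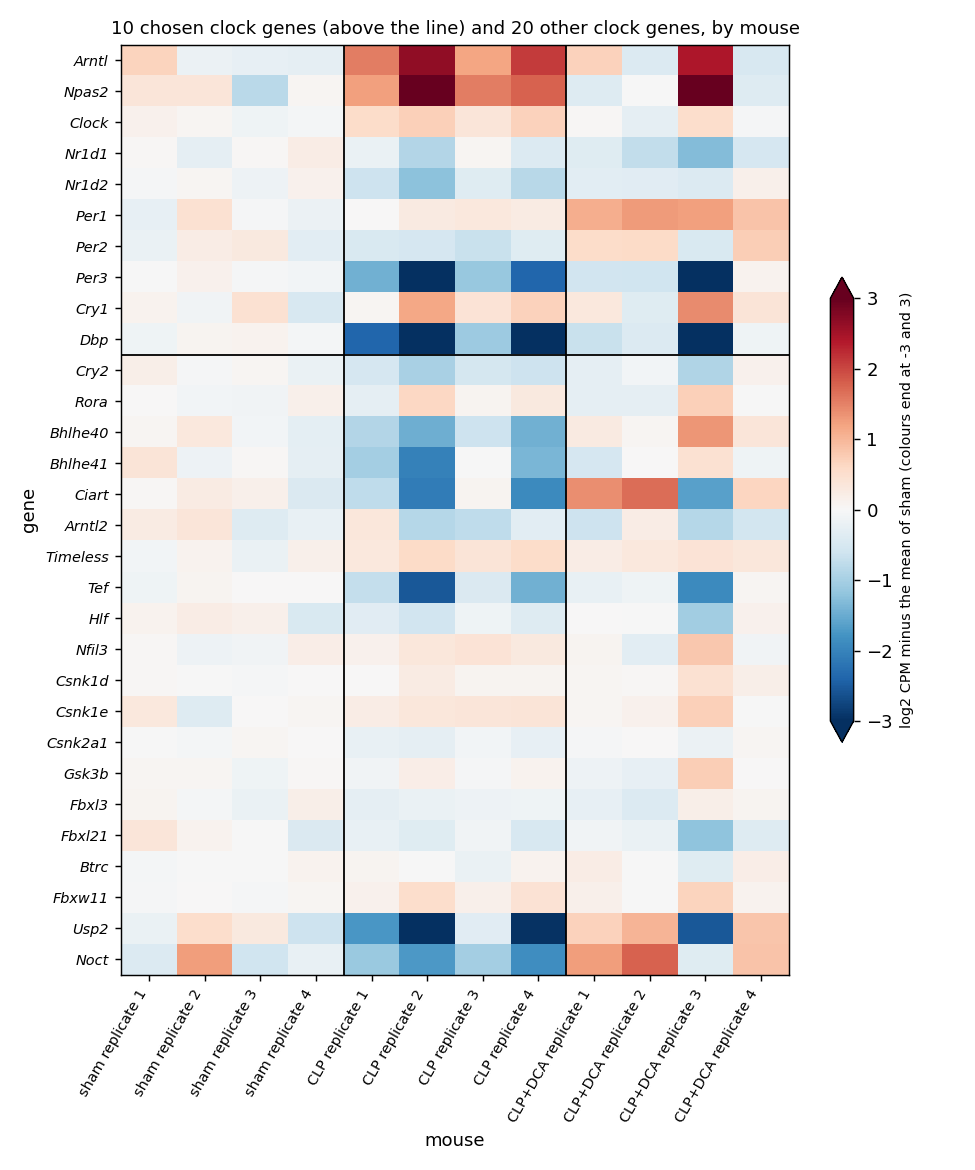
Log2 CPM of the 10 chosen clock genes (above the line) and 20 other clock genes in each of the 12 mice, relative to the mean of the 4 sham mice, with colours that end at -3 and 3. The column of CLP+DCA replicate 3 is on the same side of sham as CLP replicates 2 and 4 for Arntl, Npas2, Per3, Dbp, Tef and Usp2, but on the opposite side from them for Bhlhe40, at 269.1 CPM against 39.0 and 39.4 CPM.

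Liver genes with known daily rhythms were described beside the clock. Of 12 such genes, 0 were called in any of the 3 comparisons by edgeR (backgrounds 2.78%, 0.0379% and 0.00758%). At an unadjusted p under 0.05, 2 were higher (background 15.5%) and 4 lower (13.1%) in CLP against sham, 1 was higher (8.14%) in CLP+DCA against sham, and 3 were higher (5.06%) and 3 lower (4.94%) in CLP+DCA against CLP. The median log2 differences were -0.25, -0.28 and 0.47. Wee1, a cell cycle kinase controlled by E-boxes, was at 7.0 to 15.5 CPM in sham, at 1.91, 0.910, 4.16 and 1.12 CPM in CLP and at 5.52, 5.95, 1.87 and 11.1 CPM in CLP+DCA, with a log2 difference of -2.36 for CLP against sham (adjusted p = 0.0503 by edgeR). The 4 CLP mice were below all sham mice, and CLP+DCA replicate 3 was again in the CLP range. Insig2, a sterol sensor known to be repressed by REV-ERB, had a log2 difference of 1.06 for CLP against sham (adjusted p = 0.0756 by edgeR) and of -1.0 for CLP+DCA against CLP (adjusted p = 0.375). Avpr1a, the hepatic vasopressin receptor, had log2 differences of 0.55 and -0.63 in the same comparisons. Without CLP+DCA replicate 3, edgeR called 4 of the 12 between CLP and sham (background 23.8%), 0 between CLP+DCA and sham (0.0828%) and 2 between CLP+DCA and CLP (4.64%).

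The lists of the other inputs known for Per1 were mixed in CLP. Of 10 glucocorticoid-inducible genes, edgeR called 2 higher and 1 lower between CLP and sham (background 2.78%), and 4 higher and 1 lower without CLP+DCA replicate 3 (23.8%). Fkbp5, a chaperone gene that glucocorticoids induce strongly, was at 30.2 to 49.7 CPM in sham, 136.4 to 195.1 CPM in CLP and 60.4 to 116.1 CPM in CLP+DCA, and it rose in CLP by 2.04 on the log2 scale (SE 0.222, adjusted p = 0.00698 by edgeR). The 3 groups did not overlap, so the order of Fkbp5 was not that of Per1. Zbtb16, named after its values were seen, rose in CLP by 1.69 on the log2 scale (adjusted p = 0.0417 by edgeR). Dusp1, a phosphatase gene of stress signalling, was at 30.4, 26.6, 25.4 and 16.1 CPM in sham, at 9.89, 12.4, 12.7 and 8.08 CPM in CLP and at 36.7, 55.6, 27.3 and 33.2 CPM in CLP+DCA. It was lower in CLP by a log2 difference of -1.19 (SE 0.248, adjusted p = 0.039 by edgeR), and its log2 difference between CLP+DCA and CLP was 1.82 (SE 0.251, adjusted p = 0.0718), or 1.95 without CLP+DCA replicate 3 (adjusted p = 0.00779). The call of Dusp1 in CLP was lost without sham replicate 1, 2 or 3, CLP replicate 1, 2 or 4, or CLP+DCA replicate 1, with adjusted p of up to 0.109 by edgeR, whereas that of Fkbp5 was kept without any 1 mouse.

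Between CLP+DCA and sham all 10 glucocorticoid-inducible genes had positive log2 differences, with a median of 0.57 against 0.01 for all genes. However, 0 were called by edgeR (background 0.0379%), and 5 were higher at an unadjusted p under 0.05 (8.14%). Without CLP+DCA replicate 3 the median was 0.67 against -0.002 for all genes, Sgk1 turned to -0.04, and 0 were called (0.0828%). Tat, the tyrosine aminotransferase gene, had log2 differences of 0.53 from sham and 0.86 from CLP in CLP+DCA, neither past the test. Like Per1, Tat was higher in every CLP+DCA mouse (2427 to 3168 CPM) than in any sham (1559 to 2063 CPM) or CLP mouse (1019 to 2403 CPM). Of the 10 genes, 4 were higher without overlap and 0 lower in CLP+DCA against sham (background 9.76%). Against CLP, 2 were higher and 2 lower without overlap (4.37%). Between CLP+DCA and CLP, 0 of the 10 were called by edgeR with all mice (background 0.00758%). At an unadjusted p under 0.05, 4 were higher and 1 lower (5.06% and 4.94%), and edgeR called 3 higher without replicate 3 (4.64%).

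Of 9 tested genes of the cAMP and immediate early list, edgeR called 1 lower between CLP and sham (background 2.78%). It called 0 between CLP+DCA and sham (0.0379%) and 0 between CLP+DCA and CLP (0.00758%). At an unadjusted p under 0.05 there was 1 gene in each comparison, lower in CLP against sham (background 13.1%) and higher in the others (8.14% and 5.06%). Without CLP+DCA replicate 3 edgeR called 2 between CLP and sham (23.8%), Junb higher and Sik1 lower, and 1, Sik1, higher between CLP+DCA and CLP (4.64%). Sik1, a kinase gene that cAMP induces, was at 25.6 to 47.7 CPM in sham, 11.9 to 16.9 CPM in CLP and 27.0 to 50.9 CPM in CLP+DCA, and it fell by 1.28 on the log2 scale in CLP (SE 0.239, adjusted p = 0.0294 by edgeR). The call was lost without any 1 of the 4 sham mice or without CLP replicate 1, 2 or 4, with adjusted p of up to 0.0893 by edgeR. Junb had a log2 difference of 0.66 for CLP against sham, and Atf3 one of 1.52 for CLP+DCA against sham (adjusted p = 0.379 by edgeR). Neither passed the test with all mice, and the value of Atf3 rested on 1 liver, since it was 0.15 without CLP+DCA replicate 3.

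Some cell type markers differed between the groups, and their part in the clock values was not tested. Hepatocyte markers summed to 67740 to 92030 CPM in sham, 41160 to 56480 CPM in CLP and 36000 to 64080 CPM in CLP+DCA. Alb was the largest part of these sums, with means of 46670, 21570 and 26340 CPM in the same order. Of 9 in the table, 6 had negative log2 differences between CLP and sham and 3, Apob, Hnf4a and Ahsg, positive ones. Only Alb was called lower in CLP by edgeR (background 2.78%). In CLP+DCA against sham and against CLP, 0 were called (backgrounds 0.0379% and 0.00758%). In each, 1 was lower at an unadjusted p under 0.05 (4.85% and 4.94%). Of 8 neutrophil markers tested, 1, Retnlg, was called higher in CLP (background 2.78%), and 6 were higher in every CLP mouse than in every sham mouse (12.2%). Elane overlapped between sham and CLP. Ly6g was the 1 with a negative log2 difference from sham, both in CLP and in CLP+DCA. Its unadjusted p by edgeR was under 0.05 in each (backgrounds 13.1% and 4.85%). Stellate cell and cholangiocyte markers summed to 59.6 to 92.3 CPM in sham, 124 to 346.7 CPM in CLP and 78.1 to 259.2 CPM in CLP+DCA. Between CLP and sham, 0 of 10 were called by edgeR (background 2.78%) and 7 were higher at an unadjusted p under 0.05 (15.5%). Macrophage, endothelial and lymphocyte markers gave 0 calls by edgeR in the 3 comparisons (backgrounds 2.78%, 0.0379% and 0.00758%). At an unadjusted p under 0.05 between CLP and sham, 1 macrophage and 5 endothelial markers were higher (15.5%) and 3 lymphocyte markers lower (13.1%). Without CLP+DCA replicate 3, edgeR called 3 hepatocyte, 6 neutrophil, 7 stellate cell and cholangiocyte, 1 macrophage, 5 endothelial and 3 lymphocyte markers between CLP and sham (23.8%), 0 between CLP+DCA and sham (0.0828%), and 5 neutrophil, 2 stellate cell and cholangiocyte, 1 endothelial and 1 lymphocyte marker between CLP+DCA and CLP (4.64%). Per1 was at 56.0 CPM in CLP+DCA replicate 3, with neutrophil markers at 55.5 CPM, and at 43.1 to 57.6 CPM in the other CLP+DCA mice, with neutrophil markers at 4.34 to 11.0 CPM.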

How the data were processed

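Whole-liver RNA of 12 mice, 4 biological replicates in each of 3 groups, was sequenced. The authors deposited a table of raw counts per gene, made by aligning reads to mm10 with STAR 2.5 and counting them with featureCounts of Subread 1.5.0-p1, as named in the submitters' processing notes; the annotation and the strand setting are not given in the sources used here. Reads were counted without molecular identifiers, so they are not independent molecules and the depths above describe counting error only.

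The counts were fitted with edgeR 4.0.16 (R 4.3.3): filterByExpr with a minimum count of 10 (13190 of 25611 genes), TMM normalization, a robust quasi-likelihood fit on all 12 mice with group as the only term, and Benjamini-Hochberg adjustment over all genes at 0.05. This test was used in place of the DESeq2 test of the study, which was run as an alternative (DESeq2 1.42.0), with limma 3.58.1 for voom. CPM use TMM-scaled library sizes, and log2 CPM a prior count of 2. Levels per kb use exon unions of GENCODE M21. The scripts were tested on simulated data. Likeness was Pearson's r of log2 CPM over the 12 mice, among genes with a mean of at least 5 CPM in at least 1 group.

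The members and the gene lists were chosen with earlier results of these data known. The values of 1 of the other clock genes are not reported here, though it is in the counts over that list. Genes were named by rule: all members; other clock genes called in any comparison or among the 3 with the smallest p in each; the 2 with the smallest p in CLP+DCA against CLP and in CLP against sham from each of the other input and rhythm lists; and the 5 genes most like Per1, and most and least like Arntl. Alternatives were DESeq2, voom with sample weights, fits on the 8 mice compared, other scalings and filters, a replicate block and leaving out each mouse.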

Additional observations from a re-analysis of the deposited data

Results flagged for a closer look

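A mouse was set apart when its gap to the nearest other mouse of its group, over the range of the group, passed Dixon's 95% critical value for 4 samples. This was the case in 9 of the 75 groups examined, and chance alone gives about 1 in 20 groups, here 3.75; 6 of the 9 were among the 30 groups of the 10 members. CLP+DCA replicate 3 was the mouse set apart in 4 cases. There Npas2 was at 2.33 CPM, against 0.0636 to 0.101 CPM in the other CLP+DCA mice, Per2 was at 20.5 CPM against 41.4 to 46.5 CPM, Dbp was at 3.44 CPM against 46.7 to 68.1 CPM, and Sik1 was at 50.9 CPM against 27.0 to 30.1 CPM. Nr1d2 was set apart in CLP+DCA replicate 4, at 121.9 CPM against 82.1 to 87.0 CPM. In CLP, Npas2 was at 3.69 CPM in replicate 2 against 0.323 to 0.494 CPM in the others, and Atf3 was at 1.57 CPM in replicate 3 against 0.575 to 0.629 CPM. In sham, Arntl was at 4.09 CPM in replicate 1 against 2.11 to 2.25 CPM, and Tat was at 1559 CPM in replicate 3 against 1990 to 2063 CPM.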

How the results depend on the processing

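The counts of calls depended on the tool and on single mice, and the cause was not tested. For other clock genes between CLP and sham the count of 1 became 4 with DESeq2 on all mice, 8 with DESeq2 and 4 with edgeR on the 8 mice compared, 10 with voom, 0 with library size alone, 0 with no filter, 0 with the replicate block, and 0 to 6 when 1 mouse was left out. For the members between CLP and sham the count of 0 became 4 with DESeq2 on all mice, 6 with DESeq2 and 6 with edgeR on the 8 mice compared, 7 with voom, and 0 to 7 with 1 mouse left out. Between CLP+DCA and sham the count of 0 other clock genes became 1 with voom, and was 0 with any 1 mouse left out. The 1 member, Per1, became 0 with edgeR on the 8 mice, with library size alone and with the replicate block, and 2 with voom, and was 0 to 1 with 1 mouse left out; it was lost without sham replicates 1, 3 or 4, CLP replicates 1, 3 or 4, or CLP+DCA replicates 1 or 2. Between CLP+DCA and CLP the count of 0 other clock genes became 2 and 2 with DESeq2 on all and on 8 mice, 4 with voom, and 0 to 4 with 1 mouse left out, and that of 0 members became 2, 1 and 8, and 0 to 4. Over all genes, 367, 5 and 1 were called in the 3 comparisons with edgeR, against 1894, 247 and 136 with DESeq2 on all mice, 3428, 169 and 80 with DESeq2 and 2387, 0 and 0 with edgeR on the 8 mice compared, 3453, 496 and 1341 with voom, and 3157, 11 and 616 without CLP+DCA replicate 3. The log2 difference of Per1 between CLP+DCA and sham was 1.03 to 1.11 under the other tools, scalings and filters and with the block, and 1.015 to 1.272 with 1 mouse left out.

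Scaling by library size alone moved the median log2 difference of all genes from 0.018 to -0.154 for CLP against sham and from 0.008 to 0.119 for CLP+DCA against CLP, and the genes called between CLP and sham from 216 higher and 151 lower to 100 and 109; the log2 difference of Per1 between CLP and sham was then 0.013. These differences of genes outside the members changed direction, the ranges being those with 1 mouse left out. Csnk1d had -0.067 for CLP against sham with library size alone; for CLP+DCA against CLP it had -0.001 with voom and -0.015 to 0.135, the lowest without CLP+DCA replicate 3. For CLP+DCA against sham, Insig2 had -0.023 with library size alone, -0.209 with voom and -0.23 to 0.198, the lowest without CLP+DCA replicate 3. In the same comparison Avpr1a had 0.036 with voom and -0.197 to 0.122, positive without sham replicate 1 or CLP+DCA replicate 4, and Sik1 had -0.276 to 0.199, positive without sham replicate 4 or CLP+DCA replicate 1, 2 or 4. Atf3 had -0.16 to 0.504 for CLP against sham, negative without CLP replicate 3, and -0.21 to 1.679 for CLP+DCA against CLP, negative without CLP+DCA replicate 3. Its difference between CLP+DCA and sham stayed positive, at 0.152 to 1.836. The members Npas2, Clock, Arntl and Cry1 also turned. Npas2 had -0.52 to 2.902 for CLP+DCA against sham, -0.41 with voom, and -3.869 to 0.701 for CLP+DCA against CLP. For CLP+DCA against sham, Clock had -0.088 to 0.206 and Arntl -0.002 to 1.357, each lowest without CLP+DCA replicate 3. Clock also reached -0.06 under another setting. Cry1, at -0.043 for CLP+DCA against CLP with all mice, had -0.481 to 0.184, and up to 0.06 under other settings. Mice with the same replicate number were not treated as pairs in the main fit. Of 12 pairs with the same number 1 had a correlation of deviations over 0.1, and they ranged from -0.459 to 0.55. The labels do not say whether equal numbers share a day or batch. These correlations cannot settle it, since deviations from means of 4 mice also carry the livers that stood apart. The 45 values of likeness with Per1 or Arntl under other scalings and without CLP+DCA replicate 3, alternatives chosen after seeing the data, kept their sign. The genes had been picked as the extremes of r over these same mice, so a turn of sign was unlikely from the start and nothing is read from this. At 1 to 6 reads per sham mouse, depth limits Npas2.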
